A study of Mus musculus with 16 samples.

Results

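The 42 genes described here were a listed set of mouse imprinted genes, taken by symbol from the 55385 genes of the deposited tables, where each was found once. RNA was sequenced from primary hippocampal cultures of newborn C57BL/6N mice in 16 libraries, 4 in each of 4 groups, and the 4 libraries of a group came from independent neuronal preparations. The Control-shRNA groups carried a control short hairpin RNA and the Dnmt3a1-shRNA groups a hairpin against Dnmt3a1, the long isoform of the DNA methyltransferase Dnmt3a. Each culture was either left at baseline or treated for 4 h with bicuculline, a blocker of GABA-A receptors that raises the firing of the network. All 4 groups were infected with recombinant adeno-associated virus of a serotype with neuronal tropism, in which the U6 promoter drove the hairpin and the chicken beta-actin promoter drove GFP, so no uninfected culture entered a comparison. A p-value weighs a difference against the spread between preparations within groups, estimated over all 4 groups together. Unless a replicate block is named, the fit did not use the replicate numbers that the 4 groups share.

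Imprinted genes are read mainly or only from the chromosome inherited from 1 parent. The choice is set in the germ line by DNA methylation at imprinting control regions, which the de novo methyltransferase Dnmt3a writes in oocytes and sperm, and is kept afterwards by maintenance methylation. Imprinted genes lie in clusters with long noncoding RNAs and small RNAs, and many are strongly expressed in brain, where Ube3a, Snrpn and Magel2 are known from the Angelman and Prader-Willi regions. The parent of origin could not be read here, since the mice were inbred and the values are gene totals. These totals also add imprinted and other isoforms together in Gnas, Grb10, Inpp5f, Mest and H13, and counting by strand is not given in the sources used here.

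The libraries held between 28912697 and 29586355 estimated counts, and mitochondrial transcripts took 2.73 to 6.60% of them. Dnmt3a, the targeted gene, had 312 ± 13.8 CPM (counts scaled to library size; mean ± SD, n = 4) in Control-shRNA and 44.5 ± 3.66 in Dnmt3a1-shRNA at baseline, and 327 ± 11.8 and 45.3 ± 1.72 with bicuculline, without overlap between libraries. The hairpin targets 1 isoform, but gene totals do not separate the isoforms of Dnmt3a. The cultures matched their label by markers: 10 neuron markers summed to 6989 to 8289 TPM, the unit scaled for transcript length, over the 16 libraries, against 227 to 514 for 10 astrocyte markers, 89.4 to 200.3 for 10 oligodendrocyte lineage markers and 3.605 to 10.6 for 10 microglia markers. The levels of GABAergic, excitatory and astrocyte markers differed between the groups to unequal extents. For GABAergic neurons, 10 markers summed to between 2774 and 3145 TPM in Control-shRNA baseline, 3504 and 4523 in Control-shRNA with bicuculline, 1803 and 2404 in Dnmt3a1-shRNA baseline and 2827 and 3438 in Dnmt3a1-shRNA with bicuculline, with none of the 10 at 0. For excitatory neurons, 7 markers summed to 1599 to 1702, 1219.6 to 1439, 1358 to 1559 and 1052 to 1368 TPM in the same 4 groups. For astrocytes, 8 of 9 tested markers had positive log2 fold changes by knockdown, with a median of 0.39 at baseline and 0.41 with bicuculline. In each, 1 was called higher, against 1.76 and 2.0% of all genes tested. By knockdown at baseline, 9 of the 10 GABAergic markers had negative log2 fold changes, with a median of -0.21. Their sizes were unlike, and 3 of the 10 were called lower, against 4.07% of all genes tested. Mean CPM went from 63.0 to 30.3 for Npy and from 395 to 274 for Sst. It went from 258 to 237 for Slc32a1 and from 14.3 to 14.2 for Dlx2. In bulk RNA, fewer cells of a type, less RNA per cell and a change of single marker genes cannot be told apart by such sums. The part of these markers in the results below was not tested.

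The imprinted genes together made up 8927 to 11574 TPM of a library. TPM allows levels to be compared between genes. Averaged over the 16 libraries, 12 of the 42 were at 100 TPM or more, 18 between 10 and 100, 6 between 1 and 10, and 6 under 1. The highest were Nnat, a small membrane protein of neurons, at 2839.6 TPM, Gnas, which encodes the stimulatory G protein alpha subunit, at 2768, the noncoding RNA Rian, a host of small nucleolar RNAs, at 1129, the splicing factor gene Snrpn at 925 and the noncoding RNA Meg3 at 652. The ranges of Nnat and Gnas over the 16 libraries overlapped. At the other end stood the catecholamine enzyme gene Ddc at 0.878 TPM, the growth-limiting RNA H19 at 0.782, the amino acid transporter gene Slc38a4 at 0.355, the placental growth gene Phlda2 at 0.300, Kcnq1ot1 at 0.249 and Asb4 at 0.167. Kcnq1ot1 was annotated as 1 exon of 93092 bases, so its low TPM went with 266 to 710 counts per library, whereas Asb4 had 1 to 15 counts and Phlda2 0 to 6. Asb4 and Phlda2 did not pass the filter on low counts, and 40 of the 42 genes were among the 17222 tested.

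**Figure D1:**
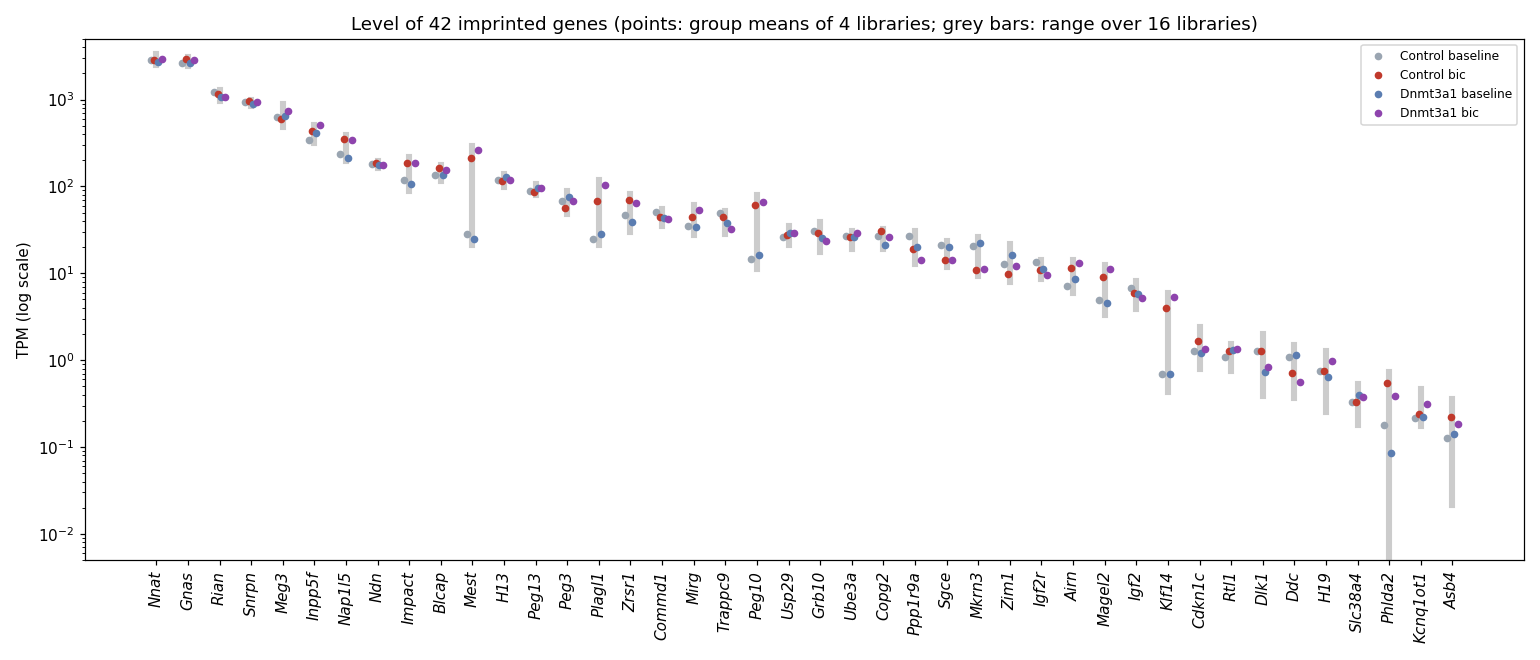
TPM of the 42 imprinted genes on a log axis, ordered by their mean over 16 libraries; points are the means of 4 libraries in each group and grey bars the range over all 16. Nnat and Gnas lead, and Mest, Peg10, Plagl1 and Klf14 show a wide split between the groups with and without bicuculline.

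The first question was what 4 h of bicuculline did to these genes in control cultures. Bicuculline changed 14 of the 40 tested genes in Control-shRNA, a gene being called where edgeR gave an adjusted p below 0.05 with a log2 fold change beyond 0.5 in either direction. Of these, 13 rose, against 10.8% of all genes tested that rose, and 1 fell, against 11.1% of all genes that fell. In Dnmt3a1-shRNA the numbers were again 13 and 1, against 12.6 and 13.2% of all genes. The median log2 fold change of the 40 was 0.24 in Control-shRNA and 0.25 in Dnmt3a1-shRNA, beside 0.01 and -0.01 over all genes tested. By adjusted p alone, 19 were higher and 3 lower in Control-shRNA, against 19.5 and 21.9% of all genes, and 20 were higher and 3 lower in Dnmt3a1-shRNA, against 20.8 and 25.2%. There were 12 genes that rose in both (Mest, Klf14, Peg10, Plagl1, Magel2, Impact, Airn, Zrsr1, Nap1l5, Mirg, Inpp5f and Copg2) and 1 that fell in both, Mkrn3. Scaling by library sizes alone moved the median of all genes by -0.15 and -0.16, and with it Control-shRNA had 9 genes higher and 2 lower, the second being Sgce, and Dnmt3a1-shRNA 12 higher and 2 lower. On log2(TPM + 1), the numbers were 9 and 2 in Control-shRNA and 10 and 2 in Dnmt3a1-shRNA, and on log2(TPM + 0.1) they were 9 and 2, and 10 and 4.

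**Figure D2:**
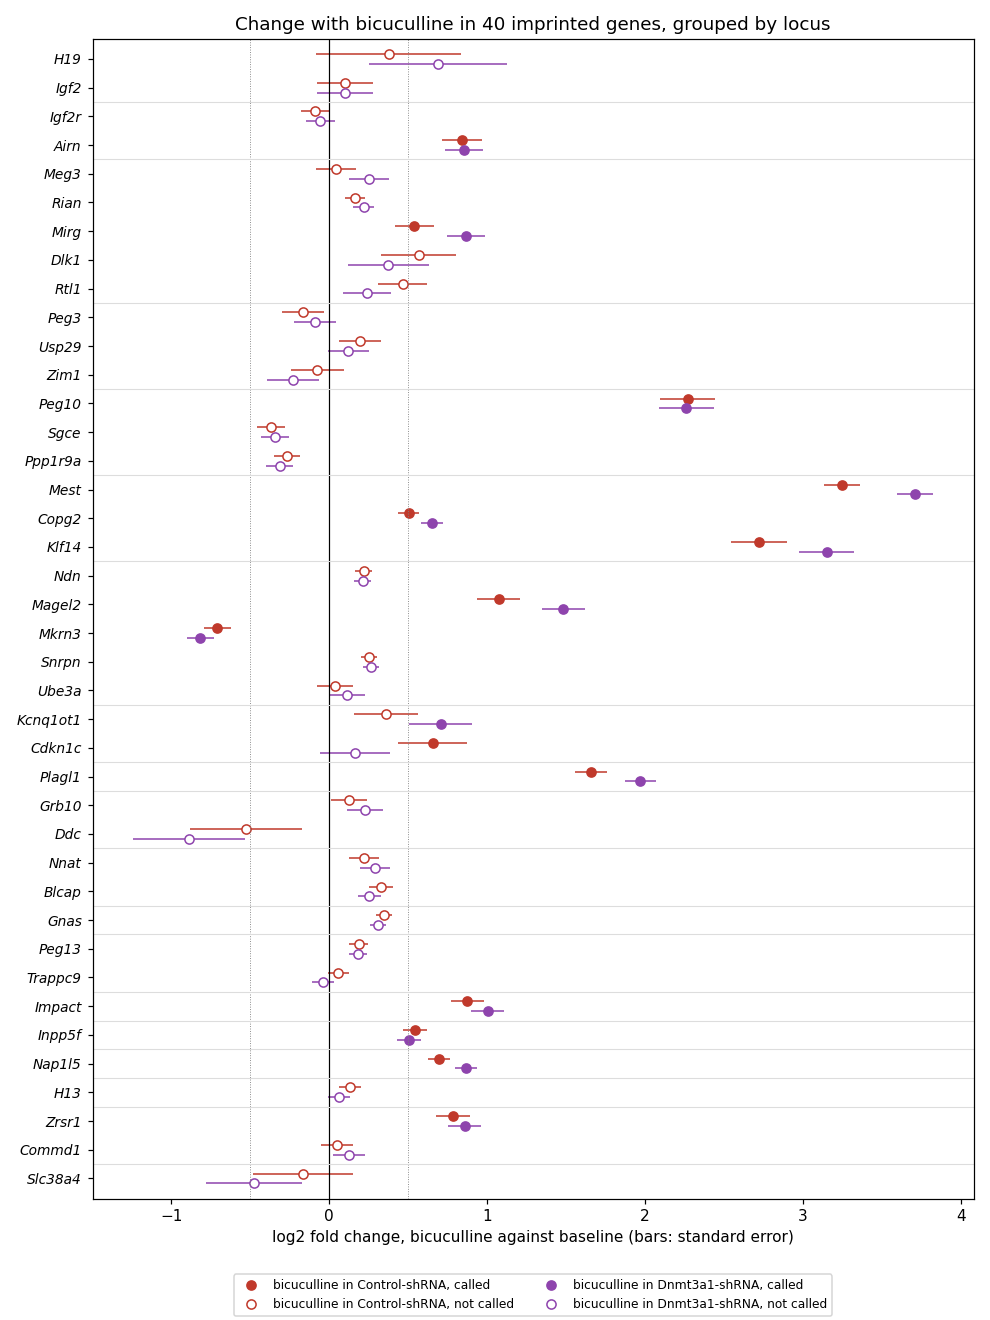
Log2 fold change of bicuculline against baseline for the 40 imprinted genes tested, in order of locus, with its standard error; red is Control-shRNA, purple Dnmt3a1-shRNA, and filled points are called (dotted lines at 0.5 either side of 0). Mest, Klf14, Peg10 and Plagl1 lie farthest to the right in both, and Mkrn3 and Sgce lie left of 0.

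Among the genes for zinc finger and retrotransposon-derived proteins, 3 of 6 rose with bicuculline with each hairpin. Of all genes tested, 10.8% rose in Control-shRNA and 12.6% in Dnmt3a1-shRNA. Peg10, a gene derived from a retrotransposon and needed by the placenta, had 50.2, 34.9, 37.8 and 59.4 CPM in the 4 Control-shRNA baseline libraries and 281, 213, 184 and 201 with bicuculline. In Dnmt3a1-shRNA it had 60.6, 42.7, 56.4 and 55.1 CPM at baseline and 326, 228, 237 and 238 with bicuculline. Every library with bicuculline lay above every library without it, and the log2 fold change was 2.27 (SE 0.18, adjusted p = 1.66e-08) in Control-shRNA and 2.26 (SE 0.18, adjusted p = 1.20e-08) in Dnmt3a1-shRNA. Plagl1, a zinc finger transcription factor known to arrest the cell cycle, had 43.7, 49.9, 50.2 and 42.7 CPM in Control-shRNA baseline and 125, 167, 161 and 136 with bicuculline. Its Dnmt3a1-shRNA libraries held 55.2, 61.9, 68.5 and 59.7 CPM at baseline and 263, 228, 253 and 218 with bicuculline. The 4 groups of Plagl1 did not overlap at all, and the log2 fold change with bicuculline was 1.66 (SE 0.10, adjusted p = 5.46e-10) in Control-shRNA and 1.97 (SE 0.10, adjusted p = 4.82e-11) in Dnmt3a1-shRNA.

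Klf14, an intronless gene for a Krüppel-like transcription factor, stood at 0.856, 0.741, 1.03 and 1.20 CPM in Control-shRNA baseline and at 5.32, 7.03, 7.34 and 5.65 with bicuculline. In Dnmt3a1-shRNA it stood at 1.12, 1.11, 1.21 and 0.640 CPM at baseline and at 9.66, 8.59, 9.30 and 8.86 with bicuculline. The groups with and without bicuculline were apart, and Klf14 rose by a log2 fold change of 2.72 (SE 0.18, adjusted p = 1.61e-09) in Control-shRNA and 3.15 (SE 0.18, adjusted p = 1.68e-10) in Dnmt3a1-shRNA. The zinc finger gene Peg3, known for its part in maternal behaviour, had log2 fold changes of -0.17 and -0.09 that did not pass the test. Rtl1, derived from a retrotransposon, had a log2 fold change of 0.46 in Control-shRNA (SE 0.16, adjusted p = 0.0235), under the limit of 0.5, and 0.24 in Dnmt3a1-shRNA (adjusted p = 0.219). The Rtl1 value in Control-shRNA reached 0.58, 0.53 or 0.52, past that limit, without Control-shRNA baseline library 2, Control-shRNA bicuculline library 2 or Control-shRNA bicuculline library 3. Over all other settings and libraries left out, its adjusted p there ran from 0.00898 to 0.351. Zim1, a zinc finger gene next to Peg3, had 16.9 to 20.9 CPM at baseline and 17.01 to 21.0 with bicuculline in Control-shRNA.

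In the group of genes for membrane, trafficking and metabolic proteins, 3 of 9 rose in each, against the same 10.8 and 12.6% of all genes. Mest, which encodes an enzyme of the alpha/beta hydrolase fold in the endoplasmic reticulum, gave the largest log2 fold change of the 40 genes in both comparisons. It had 27.0, 26.7, 33.5 and 29.2 CPM in Control-shRNA baseline and 262, 264, 338 and 243 with bicuculline. The Dnmt3a1-shRNA libraries had 27.1, 26.5, 34.3 and 26.2 CPM at baseline and 393, 385, 374 and 342 with bicuculline. Every bicuculline library lay far above every baseline library, and the rise was 3.25 on the log2 scale (SE 0.11, adjusted p = 8.71e-13), or 9.50-fold, in Control-shRNA and 3.71 (SE 0.12, adjusted p = 2.12e-13), or 13.1-fold, in Dnmt3a1-shRNA. An intron of Mest holds the hairpin of a microRNA whose mature sequences are shown because the host gene changed most (RefSeq, GRCm38.p6; capitals mark the seed, bases 2 to 8); the microRNAs themselves were not measured.
miR-335-5p (chr6:30741314-30741336, plus strand): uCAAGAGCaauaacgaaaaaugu
miR-335-3p (chr6:30741354-30741375, plus strand): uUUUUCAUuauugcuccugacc

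Copg2, which encodes a subunit of the COPI vesicle coat, lies tail to tail with Mest on the opposite strand, and their exons overlap by 912 bases. It had 37.6, 38.7, 43.4 and 37.6 CPM in Control-shRNA baseline and 55.9, 55.9, 55.1 and 55.9 with bicuculline. In Dnmt3a1-shRNA it had 35.9, 30.2, 37.5 and 32.6 CPM at baseline and 55.7, 54.2, 53.5 and 50.4 with bicuculline. The groups did not overlap, and Copg2 rose by 0.50 on the log2 scale (SE 0.07, adjusted p = 1.15e-05) in Control-shRNA and 0.65 (SE 0.07, adjusted p = 5.03e-07) in Dnmt3a1-shRNA. Without strand, reads of Mest and Copg2 in the shared bases cannot be told apart. On log2(TPM + 1) the Copg2 value was 0.20 (adjusted p = 0.134) in Control-shRNA and 0.32 in Dnmt3a1-shRNA, and with library sizes alone it was 0.34 in Control-shRNA. In Control-shRNA the value sat at the limit of 0.5 and fell to between 0.48 and 0.50 without any 1 of 9 libraries, namely Control-shRNA baseline 1, 2 or 4, Control-shRNA bicuculline 1 or 4, or any Dnmt3a1-shRNA library with bicuculline, with adjusted p from 2.22e-05 to 0.000111.

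Inpp5f, which encodes an inositol phosphatase of endosomes, had 439, 417, 427 and 488 CPM in Control-shRNA baseline and 730.1, 586, 586 and 682 with bicuculline. In Dnmt3a1-shRNA it had 598, 542, 567 and 579.8 CPM at baseline and 855, 829, 739 and 819 with bicuculline. The bicuculline libraries of Inpp5f lay above the baseline libraries of the same hairpin, with log2 fold changes of 0.55 (SE 0.08, adjusted p = 1.61e-05) and 0.50 (SE 0.08, adjusted p = 2.97e-05). These too were near the limit of 0.5: the Control-shRNA value was 0.48 without Control-shRNA bicuculline library 1, and the Dnmt3a1-shRNA value was 0.47 to 0.50 without Control-shRNA bicuculline 1, Dnmt3a1-shRNA baseline 2 or 3, or Dnmt3a1-shRNA bicuculline 1, 2 or 4. Library sizes alone gave 0.39 and 0.35, and log2(TPM + 1) gave 0.35 and 0.31. Sgce, the gene for epsilon-sarcoglycan, is read away from Peg10 from a start 99 bases off, and went the other way: it had 13.6 to 17.1 CPM in Control-shRNA baseline and 10.8 to 12.2 with bicuculline, a log2 fold change of -0.37 (SE 0.09, adjusted p = 0.00271), and -0.34 (adjusted p = 0.00402) in Dnmt3a1-shRNA. These differences were under the limit of 0.5 here and past it in Control-shRNA with library sizes alone (-0.53) or on log2(TPM + 1) (-0.53), and in Dnmt3a1-shRNA on log2(TPM + 1) (-0.50). Nnat had a log2 fold change of 0.22 (adjusted p = 0.0680) and 0.29 (adjusted p = 0.0169). The adjusted p of Nnat in Dnmt3a1-shRNA rose to as much as 0.413 under other settings or with 1 library left out. The signal peptide peptidase gene H13, the trafficking gene Trappc9, Ddc and Slc38a4 did not pass the test in either comparison, with the values of Ddc and Slc38a4 at 0.238 to 1.24 CPM. With the replicate number as a block, Ddc was called lower in Dnmt3a1-shRNA, at a log2 fold change of -0.88 (SE 0.32, adjusted p = 0.0261).

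The genes for ubiquitin enzymes and MAGE proteins held both directions. Magel2, a MAGE partner of a ubiquitin ligase in the Prader-Willi region, had 9.08, 11.6, 11.0 and 10.7 CPM in Control-shRNA baseline and 19.1, 27.3, 22.8 and 20.1 with bicuculline. In Dnmt3a1-shRNA it had 8.29, 13.1, 11.1 and 9.87 CPM at baseline and 27.6, 34.0, 30.3 and 26.5 with bicuculline. The treated libraries were all above the untreated ones, with a rise of 1.07 on the log2 scale (SE 0.14, adjusted p = 5.44e-06) in Control-shRNA and 1.48 (SE 0.14, adjusted p = 9.69e-08) in Dnmt3a1-shRNA. Mkrn3, a ubiquitin ligase gene whose start lies 43129 bases from that of Magel2 and whose loss is known to bring early puberty, had 21.4, 26.4, 21.3 and 23.7 CPM in Control-shRNA baseline and 12.99, 13.7, 15.2 and 14.8 with bicuculline. Its Dnmt3a1-shRNA libraries had 27.5, 27.5, 29.2 and 26.5 CPM at baseline and 14.1, 17.3, 16.6 and 14.8 with bicuculline. Here all treated libraries were below all untreated ones, and Mkrn3 fell by 0.71 on the log2 scale (SE 0.09, adjusted p = 3.31e-06) in Control-shRNA and by 0.82 (SE 0.09, adjusted p = 4.65e-07) in Dnmt3a1-shRNA. Ndn, the MAGE gene necdin on the other side of Magel2, had a log2 fold change of 0.22 (SE 0.05, adjusted p = 0.00355) and 0.21 (SE 0.05, adjusted p = 0.00377). The libraries did not overlap, but both values were under the limit of 0.5. For Ndn, other settings or 1 library left out took adjusted p to as much as 0.934 and 0.878. Ube3a, the ubiquitin ligase of Angelman syndrome, and the protease gene Usp29 did not pass the test in either comparison; Ube3a had 89.6 to 118 CPM in Control-shRNA baseline and 98.7 to 122 with bicuculline, and shares 1803 exonic bases with the RNA Snhg14.

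**Figure D3:**
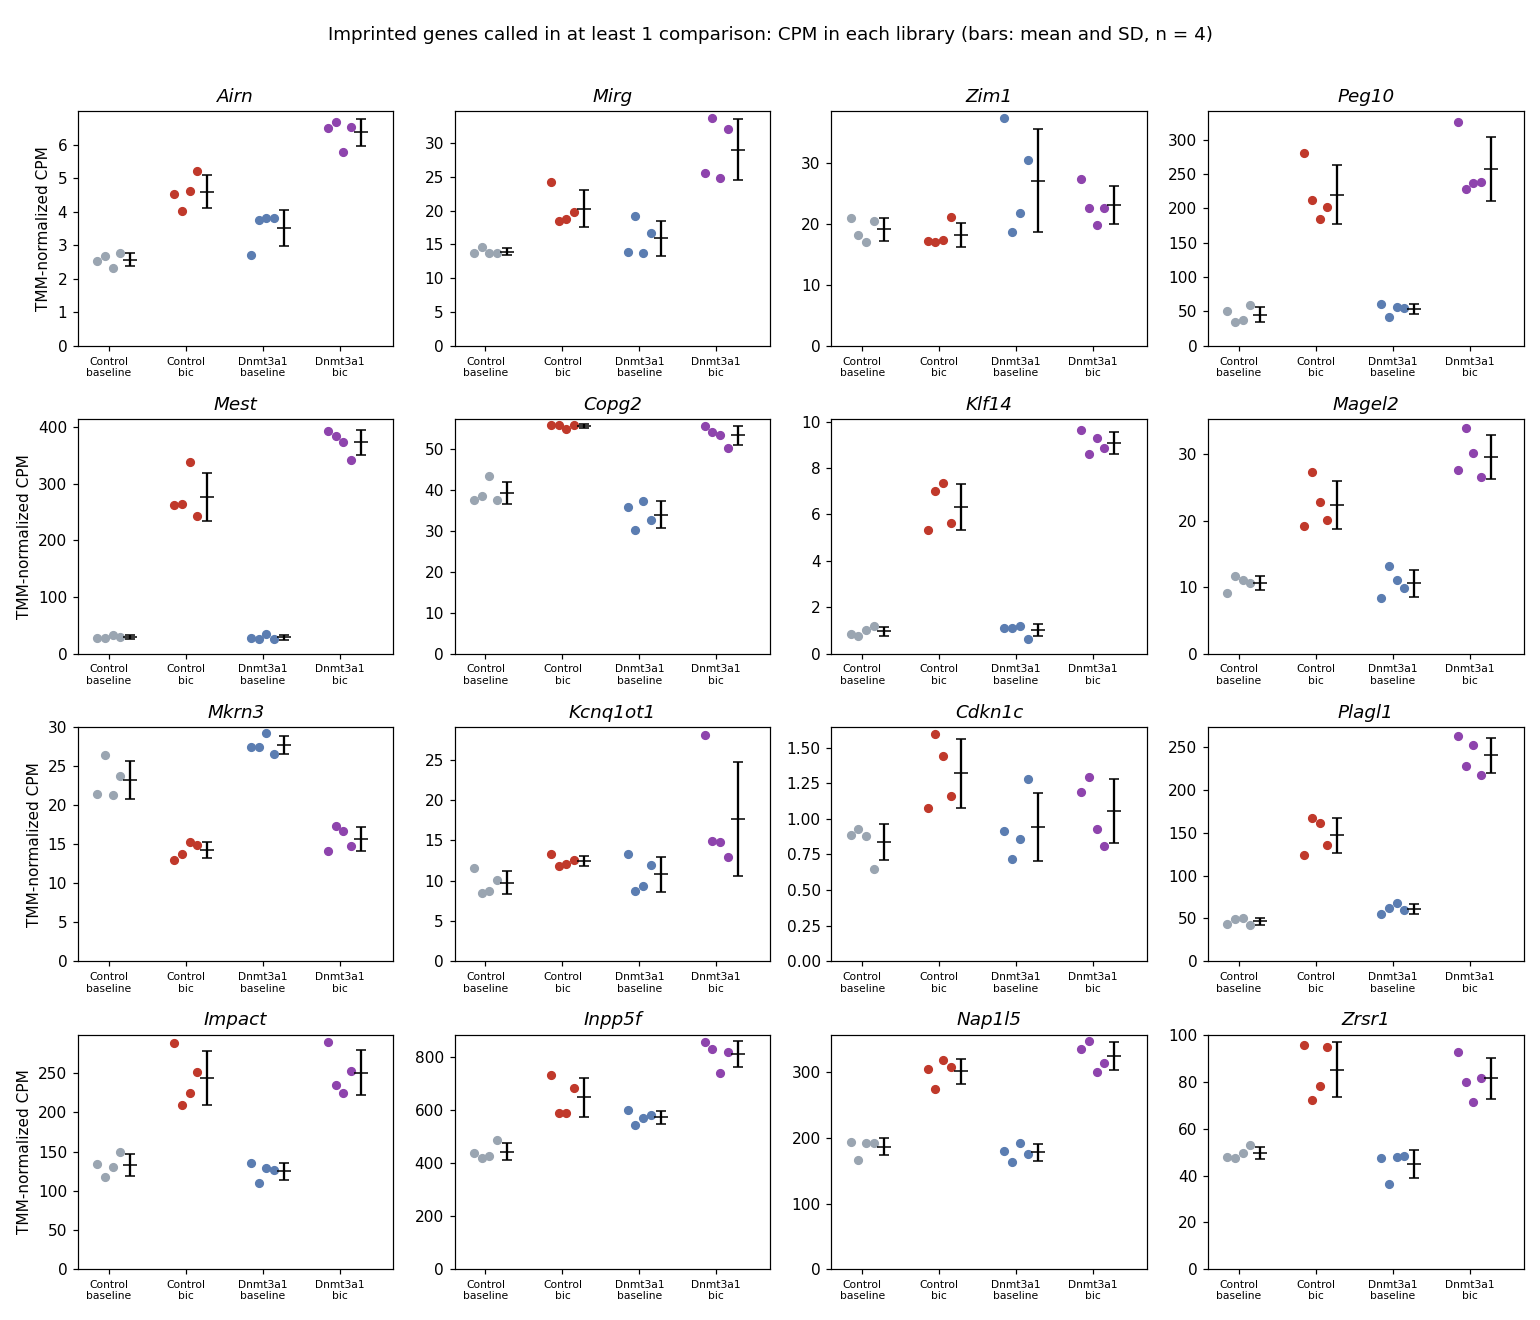
TMM-normalized CPM in each of the 16 libraries for the 16 imprinted genes called in at least 1 comparison, 4 libraries a group; black bars give the mean and SD. Mest, Klf14, Peg10, Plagl1 and Magel2 are apart between baseline and bicuculline, Mkrn3 is lower with bicuculline, and Kcnq1ot1 has 1 library at 28.1 CPM above the other 3 of its group.

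Both genes for RNA processing proteins had higher levels with bicuculline. Zrsr1, related to the splicing factor U2AF and lying inside Commd1, had 48.1, 47.4, 49.7 and 53.1 CPM in Control-shRNA baseline and 95.9, 72.5, 78.2 and 95.1 with bicuculline. Dnmt3a1-shRNA libraries gave 47.5, 36.3, 47.9 and 48.5 CPM at baseline and 92.9, 80.0, 71.5 and 81.8 with bicuculline. The groups were apart and the log2 fold changes were 0.79 (SE 0.11, adjusted p = 1.16e-05) and 0.86 (SE 0.11, adjusted p = 3.46e-06). Commd1, the host gene, known for copper handling, runs on the opposite strand with 412 shared exonic bases and did not pass the test, with 10.2 to 13.1 CPM in Control-shRNA baseline and 11.6 to 13.3 with bicuculline. Snrpn had a log2 fold change of 0.25 (SE 0.05, adjusted p = 0.000602) and 0.26 (SE 0.05, adjusted p = 0.000340). All treated libraries lay above the untreated ones, but both values were under the limit of 0.5. Adjusted p for Snrpn rose to as much as 0.596 and 0.398 under other settings or with 1 library left out.

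Of the genes for growth and signalling proteins, 2 of 7 tested rose in Control-shRNA and 1 of 7 in Dnmt3a1-shRNA, against 10.8 and 12.6% of all genes. Impact, an inhibitor of the kinase Gcn2 that is abundant in neurons, had 135, 117, 131 and 149.7 CPM in Control-shRNA baseline and 289, 210.1, 225 and 251 with bicuculline. With the Dnmt3a1 hairpin it had 135, 109.7, 129 and 126 CPM at baseline and 290.3, 235, 224 and 252 with bicuculline. The groups did not overlap, and Impact rose by 0.87 on the log2 scale (SE 0.10, adjusted p = 2.92e-06) and 1.003 (SE 0.10, adjusted p = 4.68e-07). Cdkn1c, the cyclin-dependent kinase inhibitor p57, was near 1 CPM: 0.889, 0.926, 0.882 and 0.649 in Control-shRNA baseline against 1.08, 1.60, 1.44 and 1.16 with bicuculline, and 0.914, 0.719, 0.857 and 1.28 against 1.19, 1.30, 0.927 and 0.812 in Dnmt3a1-shRNA. Its Control-shRNA groups were apart (log2 fold change 0.65, SE 0.22, adjusted p = 0.0225), while those of Dnmt3a1-shRNA overlapped (0.16, SE 0.22, adjusted p = 0.588). The Cdkn1c call was lost without Control-shRNA baseline library 4 (0.55, adjusted p = 0.0756), Control-shRNA bicuculline library 2 (0.55, adjusted p = 0.0759) or library 3 (0.61, adjusted p = 0.0574), and on log2(TPM + 1) the value was 0.20.

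Gnas had a log2 fold change with bicuculline of 0.35 (SE 0.05, adjusted p = 4.29e-05) and 0.31 (SE 0.05, adjusted p = 0.000111). Both were under the limit of 0.5, without overlap of the libraries. Adjusted p for Gnas rose to as much as 0.105 and 0.297 under other settings or with 1 library left out. The growth factor gene Igf2 had 6.12 to 8.59 CPM in Control-shRNA baseline and 6.55 to 10.7 with bicuculline, and shares 3596 exonic bases with the annotated gene Gm49394. The receptor gene Igf2r had 50.1 to 58.4 and 49.7 to 54.5 CPM in the same groups, and the insulin signalling adaptor gene Grb10 38.6 to 49.1 and 41.0 to 56.8. Dlk1, a Notch-related ligand, had 0.639 to 0.988 CPM in Control-shRNA baseline and 1.04 to 1.82 with bicuculline. None of these 4 passed the test, but with the replicate number as a block Dlk1 was called higher in Control-shRNA, at a log2 fold change of 0.55 (SE 0.21, adjusted p = 0.0354).

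Noncoding RNAs were 7 of the tested genes, of which 2 rose in Control-shRNA and 3 in Dnmt3a1-shRNA, against 10.8 and 12.6% of all genes. Airn, the RNA read antisense to Igf2r and known to silence it in cis, had 2.53, 2.69, 2.31 and 2.76 CPM in Control-shRNA baseline and 4.54, 4.01, 4.63 and 5.23 with bicuculline. Its Dnmt3a1-shRNA libraries had 2.71, 3.76, 3.81 and 3.80 CPM at baseline and 6.49, 6.66, 5.77 and 6.54 with bicuculline. The groups with and without bicuculline were apart for each hairpin, and Airn rose by 0.84 (SE 0.13, adjusted p = 3.48e-05) and 0.85 (SE 0.12, adjusted p = 1.59e-05) on the log2 scale, while Igf2r had log2 fold changes of -0.09 and -0.06. Kcnq1ot1, the antisense RNA inside Kcnq1, had 11.6, 8.46, 8.76 and 10.1 CPM in Control-shRNA baseline and 13.3, 11.9, 12.1 and 12.6 with bicuculline, a log2 fold change of 0.36 (SE 0.20, adjusted p = 0.173). Dnmt3a1-shRNA libraries gave 13.4, 8.70, 9.34 and 11.9 CPM at baseline and 28.1, 14.9, 14.8 and 12.9 with bicuculline. That rise of 0.71 (SE 0.20, adjusted p = 0.00737) rested on library 1, at 28.1 CPM: without it the value was 0.39 (adjusted p = 0.0286), under the limit of 0.5.

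Mirg, the microRNA host RNA at the end of the Dlk1-Meg3 locus, had 13.7, 14.6, 13.7 and 13.8 CPM in Control-shRNA baseline and 24.2, 18.4, 18.7 and 19.7 with bicuculline. With the Dnmt3a1 hairpin it had 13.9, 19.2, 13.8 and 16.7 CPM at baseline and 25.5, 33.6, 24.8 and 32.1 with bicuculline. The treated libraries were above the untreated ones, with log2 fold changes of 0.54 (SE 0.12, adjusted p = 0.00170) and 0.87 (SE 0.12, adjusted p = 1.30e-05). In Control-shRNA the Mirg value fell to 0.44 without bicuculline library 1, to 0.38 with library sizes alone and to 0.32 (adjusted p = 0.0571) on log2(TPM + 1). Its span on the plus strand holds 26 mature microRNAs with 25 different seeds. Those of known interest in dendrites (miR-134-5p) and the pair with a common seed are shown, again from RefSeq with the seed in capitals, and were not measured.
miR-134-5p (chr12:109734145-109734166, plus strand): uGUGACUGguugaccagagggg
miR-453 (chr12:109735669-109735692, plus strand): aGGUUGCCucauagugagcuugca
miR-496a-5p (chr12:109739132-109739152, plus strand): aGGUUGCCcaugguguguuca

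The other RNAs of that locus, Meg3 and Rian, are thought to be parts of 1 long maternal transcript with Mirg. Meg3 had 900.5 to 1045 CPM in Control-shRNA baseline and 922 to 1096 with bicuculline, which overlapped and did not pass the test, and Rian 916 to 972 and 967 to 1123. In Dnmt3a1-shRNA, Rian passed by adjusted p alone, at 825 to 948 CPM at baseline and 966 to 1119.8 with bicuculline (adjusted p = 0.00983). Peg13, an RNA inside an intron of Trappc9, had 184 to 205 CPM in Control-shRNA baseline and 209 to 234 with bicuculline (adjusted p = 0.0159, fold under the limit), and H19 had 0.243 to 0.811 and 0.391 to 0.755.

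Of the remaining genes, Nap1l5, related to nucleosome assembly proteins, had 193, 167, 193 and 192 CPM in Control-shRNA baseline and 305, 275, 319 and 308 with bicuculline. Its Dnmt3a1-shRNA libraries had 180.5, 163, 193 and 175 CPM at baseline and 336, 348, 299.9 and 315 with bicuculline. The groups were apart and Nap1l5 rose by 0.69 (SE 0.07, adjusted p = 3.89e-07) and 0.87 (SE 0.07, adjusted p = 2.00e-08) on the log2 scale. Ppp1r9a, the gene for the synaptic actin-binding protein neurabin, had 104 to 122 CPM in Control-shRNA baseline and 90.7 to 99.7 with bicuculline (log2 fold change -0.27, SE 0.08, adjusted p = 0.0165). In Dnmt3a1-shRNA its ranges were 75.4 to 102 and 68.4 to 79.8 CPM (-0.31, SE 0.08, adjusted p = 0.00537), overlapping and again under the limit, and -0.50, past it, on log2(TPM + 0.1). Blcap, a small apoptosis-related gene that surrounds Nnat, had log2 fold changes of 0.33 (SE 0.08, adjusted p = 0.00200) and 0.26 (SE 0.08, adjusted p = 0.00985). Other settings or 1 library left out took its adjusted p to as much as 0.179 and 0.404.

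Neighbours within 1 cluster did not all go the same way. All 3 tested genes of the Mest cluster rose with bicuculline in both comparisons, though Copg2 by far less than Mest and Klf14. In the Peg10 cluster, Peg10 rose and Sgce and Ppp1r9a had negative values. In the Prader-Willi and Angelman cluster of 5 tested genes, 1 rose (Magel2) and 1 fell (Mkrn3), and in the Dlk1-Meg3 cluster 1 of 5 rose (Mirg). By the allele that is expressed according to textbook knowledge, 8 of 21 paternally expressed genes rose and 1 fell in Control-shRNA, 4 of 13 maternally expressed genes rose, and 1 of the 6 genes whose allele depends on tissue or isoform rose. In Dnmt3a1-shRNA the numbers were 9 and 1 of 21, 3 of 13 and 1 of 6. Of all genes tested, 10.8% rose and 11.1% fell in Control-shRNA, and 12.6 and 13.2% in Dnmt3a1-shRNA. The median log2 fold change was 0.36, 0.06 and 0.23 for the 3 classes in Control-shRNA and 0.29, 0.16 and 0.24 in Dnmt3a1-shRNA. Since clusters share control regions, the members of a class are not independent.

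Promoter entries in RefSeq (GRCm38.p6) were found for 33 of the 42 genes and for 11 of those called with bicuculline. The 250 bases before the start are shown for Mest, Plagl1 and Magel2, the genes with an entry that had the 3 largest rises, and for Mkrn3, the gene that fell; capitals mark CG dinucleotides, the sites of DNA methylation. Mest has 3 entries, with 7, 14 and 14 CG dinucleotides, of which 1 with 14 is shown.
Mest (chr6:30737800-30738049, plus strand): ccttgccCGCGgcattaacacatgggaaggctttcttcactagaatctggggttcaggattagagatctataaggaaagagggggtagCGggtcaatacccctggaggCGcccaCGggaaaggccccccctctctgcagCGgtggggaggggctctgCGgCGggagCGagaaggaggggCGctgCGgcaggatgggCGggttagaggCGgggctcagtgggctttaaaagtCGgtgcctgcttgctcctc
Plagl1 (chr10:13090582-13090831, plus strand): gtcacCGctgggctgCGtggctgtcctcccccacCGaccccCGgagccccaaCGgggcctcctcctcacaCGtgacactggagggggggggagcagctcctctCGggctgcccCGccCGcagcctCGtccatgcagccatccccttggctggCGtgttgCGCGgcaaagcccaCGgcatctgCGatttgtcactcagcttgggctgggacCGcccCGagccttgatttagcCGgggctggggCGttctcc
Magel2 (chr7:62376729-62376978, plus strand): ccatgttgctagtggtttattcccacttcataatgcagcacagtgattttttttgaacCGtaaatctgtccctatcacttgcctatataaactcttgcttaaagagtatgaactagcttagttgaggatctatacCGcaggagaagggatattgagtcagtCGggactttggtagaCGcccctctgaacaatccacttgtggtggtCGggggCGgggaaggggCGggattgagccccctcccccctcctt
Mkrn3 (chr7:62420154-62420403, minus strand): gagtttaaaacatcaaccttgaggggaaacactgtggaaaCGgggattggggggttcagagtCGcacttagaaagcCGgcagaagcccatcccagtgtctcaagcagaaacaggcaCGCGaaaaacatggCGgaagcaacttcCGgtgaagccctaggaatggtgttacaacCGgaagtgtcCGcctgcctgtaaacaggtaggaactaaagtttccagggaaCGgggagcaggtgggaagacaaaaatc

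These windows held 14 CG dinucleotides in Mest, 19 in Plagl1, 7 in Magel2 and 10 in Mkrn3, beside a median of 6 over 32851 promoters of the same length. Motifs of activity-regulated factors were searched on both strands of the same windows: the full cAMP response element TGACGTCA, its core TGACG, which the full element contains, the AP-1 site TGANTCA, the Egr site GCGTGGGCG and a core of the CTCF site, CCACNAG. The full element was in none of the 11 called genes and in 1.55% of all promoters, and the core in 2 (Copg2 and Kcnq1ot1), beside 17.77%. AP-1 was in 1 (Magel2), beside 6.75%, Egr in none, beside 0.54%, and the CTCF core in 1 (Magel2, which holds 2 copies), beside 12.74%. Meg3 and Peg3, which did not change with bicuculline by the test, hold the full element. A match says that the letters are present and nothing of binding or methylation, neither of which was measured.

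The second question was what knockdown of Dnmt3a1 did. At baseline 1 of the 40 genes rose (Zim1) and none fell, against 1.76 and 4.07% of all genes tested. With bicuculline 3 rose (Plagl1, Mirg and Klf14) and none fell, against 2.0 and 3.90%. By adjusted p alone, 7 were higher and 3 lower at baseline, against 8.12 and 8.19% of all genes, and 8 higher and 2 lower with bicuculline, against 7.69 and 9.99%. With the replicate number as a block, 15 were higher and 3 lower with bicuculline by adjusted p alone, against 14.6 and 15.3% of all genes in that fit. Those added were Meg3, Peg3, Usp29, Zim1, Ube3a, Kcnq1ot1 and H13, higher, and Dlk1, lower. The median log2 fold change was 0.12 at baseline and 0.14 with bicuculline, beside 0.01 and -0.01 over all genes, and the values ran from -0.45 to 0.50 and from -0.64 to 0.71. The count of 0 genes that fell was also found by voom with limma and by DESeq2 in both comparisons. In the edgeR fit with the replicate block, Dlk1 was called lower with bicuculline by both limits (-0.64, SE 0.22, adjusted p = 0.0346). At an unadjusted p under 0.05 there were 12 genes of either direction at baseline, against 28.8% of all genes, and 15 with bicuculline, against 31.2%. The groups with bicuculline also enter the bicuculline comparisons above, so the values below and above share libraries.

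**Figure D4:**
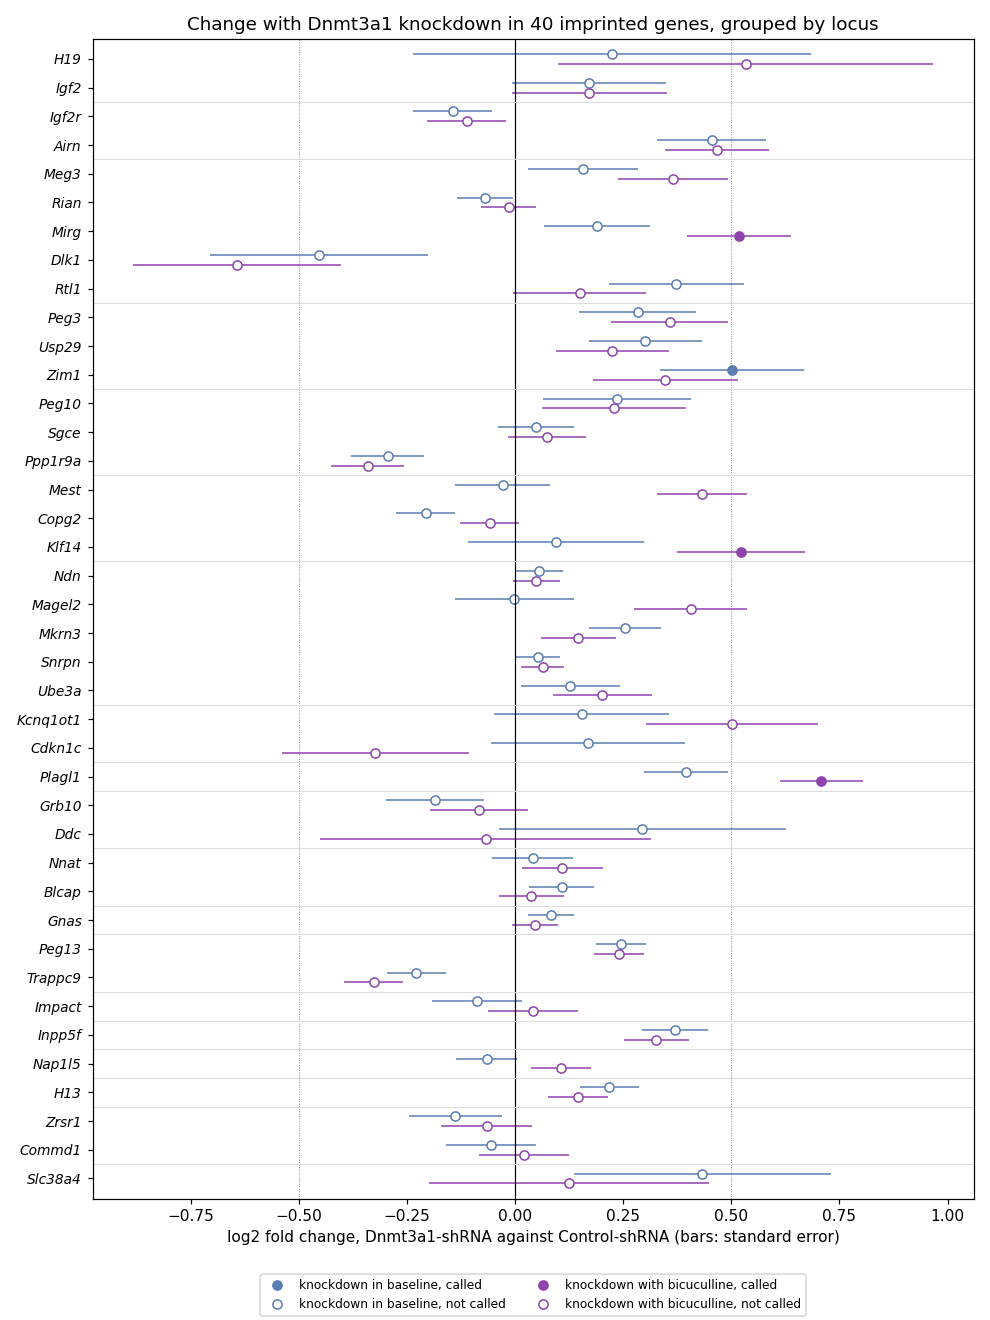
Log2 fold change of Dnmt3a1-shRNA against Control-shRNA for the 40 imprinted genes tested, in order of locus, with its standard error; blue is at baseline, purple with bicuculline, and filled points are called (dotted lines at 0.5 either side of 0). Plagl1 lies farthest to the right with bicuculline, and most genes lie within 0.5 of 0.

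With bicuculline, Plagl1 had the largest difference by knockdown of the 40 genes. It had 125, 167, 161 and 136 CPM in Control-shRNA and 263, 228, 253 and 218 in Dnmt3a1-shRNA, without overlap, a rise of 0.71 on the log2 scale (SE 0.10, adjusted p = 6.57e-05), or 1.63-fold. The call held without any 1 of the 16 libraries and under 10 of 10 other settings of test, scaling, filter, unit and block. At baseline Plagl1 had 42.7 to 50.2 CPM in Control-shRNA and 55.2 to 68.5 in Dnmt3a1-shRNA, again without overlap. Its log2 fold change there was 0.40 (SE 0.10, adjusted p = 0.00968), under the limit of 0.5. That adjusted p rose to as much as 0.431 under other settings or with 1 library left out. Klf14 with bicuculline had 5.32 to 7.34 CPM in Control-shRNA and 8.59 to 9.66 in Dnmt3a1-shRNA, a rise of 0.52 (SE 0.15, adjusted p = 0.0209). Its call was lost without Control-shRNA bicuculline library 1 (0.44, adjusted p = 0.0570) or 4 (0.48, adjusted p = 0.0599) or Dnmt3a1-shRNA bicuculline library 1 (0.49, adjusted p = 0.0571). With library sizes alone the Klf14 value was 0.45 (adjusted p = 0.0596), and at baseline the ranges of the hairpins overlapped.

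Mirg with bicuculline had 18.4 to 24.2 CPM in Control-shRNA and 24.8 to 33.6 in Dnmt3a1-shRNA, a rise of 0.52 (SE 0.12, adjusted p = 0.00631). Its value fell to between 0.44 and 0.48 without Control-shRNA bicuculline library 2 or 3 or Dnmt3a1-shRNA bicuculline library 2 or 4, and to 0.26 (adjusted p = 0.206) on log2(TPM + 1). Zim1 at baseline had 20.9, 18.1, 16.9 and 20.5 CPM in Control-shRNA and 37.4, 18.7, 21.8 and 30.4 in Dnmt3a1-shRNA, so that the groups overlapped and libraries 1 and 4 were high. Its log2 fold change of 0.50 (SE 0.17, adjusted p = 0.0477) lay at both limits. The Zim1 call was lost without any 1 of 14 of the 16 libraries, that is all but Dnmt3a1-shRNA baseline 2 and 3, at values of 0.31 to 0.55 with adjusted p from 0.0431 to 0.190, the lowest value being that without Dnmt3a1-shRNA baseline library 1. With the replicate number as a block Zim1 had 0.47 (SE 0.12, adjusted p = 0.00547), under the limit of 0.5. With bicuculline Zim1 had 0.35 (adjusted p = 0.169) without the block and 0.34 (SE 0.12, adjusted p = 0.0391) with it.

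Among genes that differed by adjusted p alone, Inpp5f was higher in every Dnmt3a1-shRNA library than in every Control-shRNA library of the same treatment. Its log2 fold change was 0.37 at baseline (SE 0.08, adjusted p = 0.00274) and 0.33 with bicuculline (SE 0.08, adjusted p = 0.00628). Peg13 likewise had 184 to 205 against 218 to 249 CPM at baseline (log2 fold change 0.25, adjusted p = 0.00770) and 209 to 234 against 247 to 266 with bicuculline (0.24, adjusted p = 0.00830). Its host gene Trappc9 went the other way, with 78.6 to 84.9 against 65.7 to 74.7 CPM at baseline (-0.23, adjusted p = 0.0285) and 78.0 to 97.3 against 63.7 to 72.2 with bicuculline (-0.33, adjusted p = 0.00313). Peg13 lies in an intron of Trappc9 on the same strand. Ppp1r9a was lower in Dnmt3a1-shRNA, by -0.29 (adjusted p = 0.0228) at baseline and -0.34 (adjusted p = 0.00959) with bicuculline, without overlap in either. Under other settings or with 1 library left out, the highest adjusted p at baseline and with bicuculline was 0.332 and 0.275 for Peg13. It was 0.0897 and 0.0164 for Trappc9, 0.0728 and 0.0338 for Ppp1r9a, and 0.0203 and 0.0412 for Inpp5f.

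Airn had a log2 fold change by knockdown of 0.45 (SE 0.13, adjusted p = 0.0205) at baseline and 0.47 (SE 0.12, adjusted p = 0.0117) with bicuculline. It passed the limit of 0.5 without Dnmt3a1-shRNA baseline library 1 (0.56), Control-shRNA bicuculline library 4 (0.54) or Dnmt3a1-shRNA bicuculline library 3 (0.51). Over all other settings and libraries left out, adjusted p for Airn rose to as much as 0.287 at baseline and 0.462 with bicuculline. Mkrn3 was higher at baseline by 0.25 (adjusted p = 0.0462), H13 by 0.22 (adjusted p = 0.0379), and Copg2 lower by -0.21 (adjusted p = 0.0473). Their highest adjusted p over those fits was 0.526 for Mkrn3, 0.583 for H13 and 0.161 for Copg2. With bicuculline, Mest was higher by 0.43 (SE 0.10, adjusted p = 0.00764), with 243 to 338 CPM in Control-shRNA and 342 to 393 in Dnmt3a1-shRNA, and Magel2 by 0.41 (SE 0.13, adjusted p = 0.0400). Mest passed the limit without Control-shRNA bicuculline library 3 (0.54) and Magel2 without Control-shRNA bicuculline library 2 (0.52). In other fits adjusted p rose to as much as 0.158 for Mest and 0.289 for Magel2. Kcnq1ot1 with bicuculline had 0.50 (SE 0.20, adjusted p = 0.0914) and was called without Dnmt3a1-shRNA bicuculline library 4 (0.62, adjusted p = 0.0468). With the replicate number as a block, Dlk1 was called lower with bicuculline, at -0.64 (SE 0.22, adjusted p = 0.0346).

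Whether the response to bicuculline itself differed between the hairpins was tested by the interaction term. By edgeR it was called for none of the 40 genes and for 0% of the 17222 tested. At an unadjusted p under 0.05 there were 3 of the 40 and 852 of all genes (4.95%), voom with limma called 0 of the 40 and 0 of all genes, and DESeq2 called 0 of the 40 and 17 of all. The 3 genes were Mest, with a response larger by 0.46 on the log2 scale in Dnmt3a1-shRNA (SE 0.15, adjusted p = 0.838), Magel2, by 0.41 (SE 0.19, adjusted p = 0.996), and Plagl1, by 0.31 (SE 0.14, adjusted p = 0.974). So Cdkn1c, called in Control-shRNA alone, and Kcnq1ot1, called in Dnmt3a1-shRNA alone, were not shown to respond differently in the 2 hairpins (adjusted p of 1 for both by edgeR).

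Further imprinted genes and the machinery of imprinting were set beside these. Of 39 other imprinted genes 28 were tested. With bicuculline, 10.8% of all genes tested rose and 11.1% fell in Control-shRNA, and 12.6 and 13.2% in Dnmt3a1-shRNA. Of the 28, 6 rose and 3 fell in Control-shRNA and 7 rose and 2 fell in Dnmt3a1-shRNA. They included Zdbf2, a paternally expressed gene, which went from 45.6 to 91.8 CPM at baseline to 422 to 592 with bicuculline in Control-shRNA (log2 fold change 2.72, SE 0.22, adjusted p = 3.77e-08), and Peg12, from the Prader-Willi region, from 0.357 to 0.608 to 2.84 to 4.56 CPM (3.12, SE 0.24, adjusted p = 1.14e-08). Knockdown called 1 of the 28 at baseline, the lipid transfer gene Osbpl5, higher (0.61, SE 0.12, adjusted p = 0.00230), against 1.76% of all genes tested. With bicuculline it called 2, both lower, against 3.90% of all genes. These were Mcts2 (-0.52, SE 0.13, adjusted p = 0.00945) and the adhesion gene Adam23 (-0.50, SE 0.08, adjusted p = 0.000231). Adam23 lay at the limit of 0.5 and was not called by voom with limma (-0.50) or DESeq2 (-0.49), and at baseline DESeq2 also called Pon2 (0.55, SE 0.19, adjusted p = 0.0271).

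Of 19 genes for DNA methylation and the upkeep of imprints 17 were tested. Knockdown called 1, Dnmt3a itself, lower in each comparison, against 4.07 and 3.90% of all genes tested. With bicuculline 3 of the 17 rose and 4 fell in Control-shRNA, against 10.8 and 11.1% of all genes. Those that rose were the 5-methylcytosine oxidase genes Tet3 (1.91, SE 0.13, adjusted p = 2.62e-09) and Tet2 (1.06, SE 0.14, adjusted p = 1.12e-05) and the Polycomb subunit gene Eed (0.60, SE 0.12, adjusted p = 0.000689). Those that fell were Tet1 (-0.99, SE 0.16, adjusted p = 8.40e-05), the methyltransferase gene Dnmt3b (-1.54, SE 0.34, adjusted p = 0.00151), the histone methyltransferase gene Setdb1 (-0.52, SE 0.06, adjusted p = 4.66e-06) and Arid4a (-0.75, SE 0.11, adjusted p = 2.05e-05). Dnmt3b was near the floor, at 0.324 to 0.494 CPM in Control-shRNA baseline and 0.0686 to 0.213 with bicuculline. Its Dnmt3a1-shRNA libraries had 0.318 to 0.572 CPM at baseline and 0.185 to 0.285 with bicuculline. In Dnmt3a1-shRNA 3 rose and 4 fell as well, against 12.6 and 13.2% of all genes, with Tet3 at 1.92 (SE 0.13). Tet1, at -1.19 (SE 0.16), had the lowest value there, so the Control-shRNA value of -1.54 for Dnmt3b was not reached. The median over the 17 was -0.02 in Control-shRNA and -0.03 in Dnmt3a1-shRNA.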

How the data were processed

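RNA-seq of primary hippocampal cultures gave 16 libraries in 4 groups of 4, grouped by the titles. The authors trimmed the reads with Trim Galore (version 0.6.4 in the submitters' processing notes), pseudoaligned them with kallisto to GRCm38.p6 transcripts and deposited estimated counts and TPM per gene. The members were the 42 listed symbols, matched to versioned identifiers through GENCODE M21 (GRCm38, the same build): 55144 of 55385 identifiers matched without version and 54487 with it. The members and gene lists were chosen with earlier results of these data known.

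The deposited estimated counts were rounded and tested with edgeR 4.0.16 (R 4.3.3): TMM scaling, filterByExpr by group, 1 fit over 4 groups, quasi-likelihood test and Benjamini-Hochberg adjustment over 17222 genes. The study's limits (adjusted p under 0.05, absolute log2 fold change over 0.5) made a call, and the interaction used adjusted p alone. The standard error was the absolute log2 fold change divided by the square root of the F statistic. CPM values are TMM-scaled. The deposited TPM served for levels between genes and, as log2(TPM + 1) and log2(TPM + 0.1), as alternatives over the genes passing the same filter. Others were voom with limma 3.58.1, DESeq2 1.42.0, other scalings, filters and fold limits, each library left out, and a replicate block. All 42 members were to be described, those called in any comparison with their value in each library. The fit was tested on simulated data.

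As a check for a library entered more than once, counts were compared within groups; no pair agreed within counting noise (chi-square per degree of freedom 7.88 to 44.5), and no libraries were merged. Libraries with the same replicate number in the titles deviated from their group means together. Correlations over genes of log2(CPM + 1) were 0.37 to 0.56 (knockdown at baseline), 0.21 to 0.57 (knockdown with bicuculline), 0.27 to 0.40 (bicuculline in Control-shRNA) and 0.11 to 0.53 (bicuculline in Dnmt3a1-shRNA), all over 0.1. In these comparisons the same number gave the best match for 3, 3, 3 and 2 of the 4 libraries. The others matched a differently numbered library better, so a pairing by number was only partly borne out. Total counts differ little between libraries, and the spread between libraries of a group exceeded counting error.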

Additional observations from a re-analysis of the deposited data

Results flagged for a closer look

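In 15 of 160 groups of 4 libraries, the highest or lowest CPM stood apart from the other 3 by Dixon's test, which flags about 1 in 20 groups by chance. In Dnmt3a1-shRNA baseline these were H19 in library 4 (1.21 CPM, nearest 0.413), Airn in library 1 (2.71, nearest 3.76), Dlk1 in library 2 (0.785, nearest 0.572), Ppp1r9a in library 2 (75.4, nearest 97.5), Mest in library 3 (34.3, nearest 27.1), Klf14 in library 4 (0.640, nearest 1.11) and Zrsr1 in library 2 (36.3, nearest 47.5). In Control-shRNA baseline they were Mirg in library 2 (14.6, nearest 13.8), Cdkn1c in library 4 (0.649, nearest 0.882) and Nap1l5 in library 2 (167, nearest 192). In Control-shRNA with bicuculline they were Dlk1 in library 4 (1.82, nearest 1.14), Zim1 in library 4 (21.0, nearest 17.3) and Copg2 in library 3 (55.1, nearest 55.9). In Dnmt3a1-shRNA with bicuculline they were Peg10 in library 1 (326, nearest 238) and Kcnq1ot1 in library 1 (28.1, nearest 14.9).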

How the results depend on the processing

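Counts of called genes depended mainly on the fold limit. Without it, 10, 10, 22 and 23 genes were called for knockdown at baseline, knockdown with bicuculline, bicuculline in Control-shRNA and bicuculline in Dnmt3a1-shRNA, in place of 1, 3, 14 and 14, and with a limit of 1 on the log2 scale 0, 0, 5 and 6. Knockdown at baseline gave 0 calls with voom, library sizes only, at least 10 counts in every library, log2(TPM + 1), log2(TPM + 0.1) or only the 2 groups compared. Knockdown with bicuculline gave 1 with library sizes only and on both TPM scales. Leaving out each library gave 0 to 1, 2 to 4, 11 to 14 and 12 to 16 calls, and 0 to 0 for the interaction. With the replicate block, which treats libraries of the same number as paired, the counts were 0, 4, 15 and 15, and 0 for the interaction. Beside the calls of Zim1, Dlk1 (in 2 comparisons) and Ddc the block changed no call of a member by both limits. By adjusted p alone it gave 15 higher and 3 lower for knockdown with bicuculline in place of 8 and 2. Of 2080 alternative values for 80 pairs of gene and comparison, 1986 stayed called or not called as before. A call was lost in 78, gained in 16, and 0 turned direction. A gene that was not called could cross the limit on adjusted p alone and still be among the 1986. Snrpn with bicuculline in Control-shRNA, for 1, had adjusted p from 3.76e-08 to 0.596 over these fits. The cause of each loss was not tested. At 1 TPM or more in Control-shRNA baseline there were 36 members, and 34 at 1 CPM or more. Low counts limit H19, Ddc, Slc38a4, Dlk1 and Cdkn1c, and Asb4 and Phlda2 could not be tested.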
